A study of Mus musculus with 4 samples.

Results

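The 10 genes described here encode the ETS factors of endothelium and blood, namely Fli1, Erg, Ets1, Ets2, Etv2, Etv6, Elk1, Elk3, Elf1 and Elf4. They were found by matching the gene IDs of the count table to their symbols, and all 10 had counts among the 55487 genes of the table. RNA was sequenced from E14-Tg2a mESCs on d4 and d2 of cardiogenic differentiation, with 2 libraries per day. E14-Tg2a is a mouse embryonic stem cell line, and the study calls its unedited cells WT. The d4 cells had been cultured for 48 h without serum, dissociated and reaggregated for 40 h in medium to which Activin A (8 ng/ml), BMP4 (0.5 ng/ml) and VEGF (5 ng/ml) were added, whereas the d2 cells came from the first 48 h in serum-free medium. Day, added factors and reaggregation therefore changed together and cannot be told apart. The study chose this window to look for enhancers of endothelial cells (EC).

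ETS factors share a winged helix-turn-helix domain that binds DNA around the core GGAA, and the flanking bases, the partners and the cell type decide which sites are used. In the early embryo, ETV2 acts as a brief master switch of the precursors of endothelium and blood, and FLI1, ERG and ETS1 keep the endothelial and blood stem cell programs running afterwards. Other family members have different tasks, as the ELK factors join SRF at genes that answer to MAPK signalling, and ETV6 is mainly a repressor.

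Total counts were 11397439 to 16851485 per library, and 14932 genes passed the filter on low counts, including all 10 ETS factors. Levels are given in CPM, the counts scaled to library size by TMM, and a gene is called where edgeR's quasi-likelihood test had an adjusted p under 0.01. Pou5f1 and the other 9 markers of pluripotent cells summed to 48.5 and 43.7 CPM at d4, against 1412 and 1107 CPM at d2. The 10 endothelial markers summed to 1277 and 961 CPM at d4, against 30.9 and 26.6 CPM at d2. In bulk RNA, fewer cells of a type and less RNA per cell cannot be told apart. The study describes its replicates as separate differentiation experiments, and with 2 per day the smallest two-sided p of an exact permutation test on a single gene is 0.333.

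Of the 10 ETS factors, 6 were higher at d4 by edgeR (Fli1, Erg, Ets1, Elk3, Etv2 and Ets2), and 4 did not pass the test (Etv6, Elf1, Elk1 and Elf4). Among all genes tested, 12.9% were higher and 11.3% were lower. None of the 10 was lower at d4, by edgeR or by DESeq2, as all 10 fitted differences were above 0. At an unadjusted p under 0.05, edgeR had 8 of the 10 higher and 0 lower, against 24.6% and 22.6% of all genes. Both d4 libraries lay above both d2 libraries for 9 of the 10, all but Elf4, against 35.8% of all genes tested. DESeq2 called 8 of the 10 higher, with Etv6 and Elf1 added, where 14.6% of all genes were higher and 12.7% lower. With the replicate number as a block, edgeR called the same 8, and 3478 of the 14932 genes were higher and 3496 lower. The sources do not say that these numbers pair the samples. The median log2 fold change of the 10 was 2.73, against -0.027 for all genes tested. The study itself picked several of these genes on the same samples, so their direction is not independent evidence. It names Elk1 and Elf1 among the ETS genes strongly upregulated at d4. Here the log2 fold change was 0.39 for Elk1, which passed neither by edgeR nor by DESeq2. For Elf1 it was 1.01, which passed by DESeq2 and not by edgeR without the block. Without d2 replicate 1 or without d2 replicate 2, edgeR called 0 of the 14932 genes, with a lowest adjusted p of 0.0181 and 0.0172, whereas DESeq2 still called 6 of the 10 factors in both cases.

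**Figure D1:**
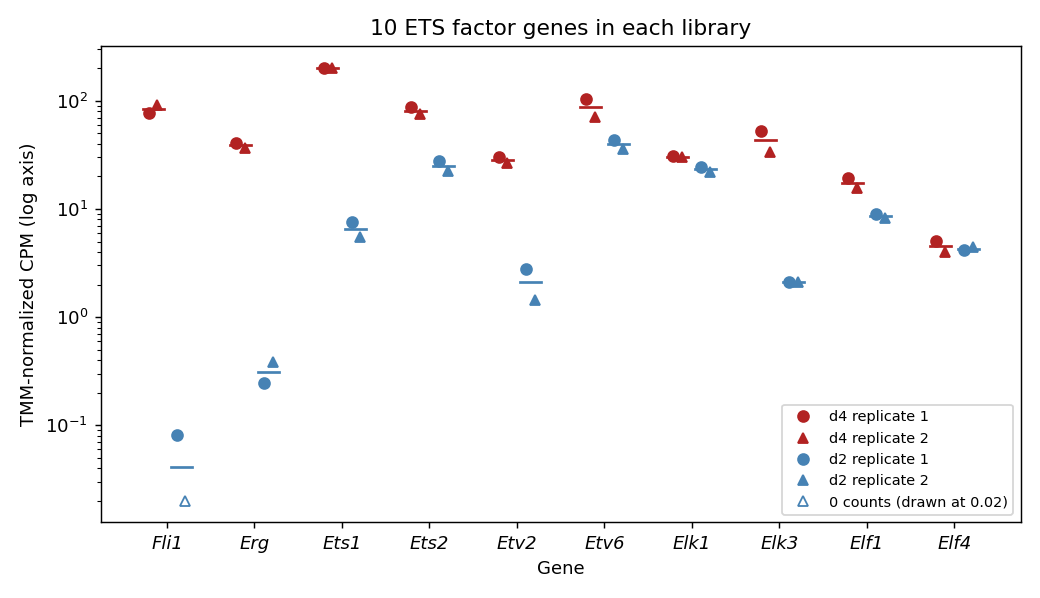
TMM-normalized CPM (log axis) of the 10 ETS factor genes in each library, d4 in red and d2 in blue, with circles for replicate 1, triangles for replicate 2 and a bar at the mean of the day; the open symbol is a library with 0 counts, drawn at 0.02. Fli1 and Erg sit at or below 0.380 CPM in both d2 libraries, and Elf4 is the 1 gene whose days overlap.

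Fli1 and Erg are close relatives that keep the endothelial state and blood stem cells in the adult. Fli1 (ENSMUSG00000016087.13, chromosome 9 from 32422204 to 32542861 of GRCm38, minus strand) had 920 and 1563 counts at d4, against 1 and 0 counts at d2. This is 77.9 and 92.0 CPM at d4, against 0.0818 and 0 CPM at d2. Fli1 was thus under the floor of 3 counts in both d2 libraries and well counted in both d4 libraries. The ratio of its normalized counts was 2189 (95% counting interval 392 to 86484, for counting error only; edgeR adjusted p = 4.5e-05). The 4 annotated transcripts with counts inside Fli1 on its own strand, chosen after their values were seen, held 13, 3, 7 and 8 counts over both d4 libraries and none at d2.

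Erg (ENSMUSG00000040732.20, chromosome 16 from 95359169 to 95586593, minus strand) had 484 and 624 counts at d4, against 3 and 5 counts at d2. In CPM it stood at 41.0 and 36.7 at d4, against 0.245 and 0.380 at d2. A floor of 3 counts in a library stands for 0.177 to 0.254 CPM, so the d2 values of Erg lay at or just above it. Erg rose by 6.91 on the log2 scale (standard error 0.34, 95% interval 6.10 to 7.71, edgeR adjusted p = 4.5e-05). The starts of Erg lie apart on the gene, and the 250 bases before the most upstream and the most downstream of its 3 RefSeq starts are shown because the gene was near the floor at d2 and has several starts. Capitals mark GGAA, the ETS core, or TTCC, the same core on the other strand, and counts per gene do not say which start was used. The RefSeq sequences are of build GRCm38.p6, 5′ to 3′ on the strand of the gene, at chr16:95586594-95586843 and chr16:95459349-95459598.
Erg most upstream start: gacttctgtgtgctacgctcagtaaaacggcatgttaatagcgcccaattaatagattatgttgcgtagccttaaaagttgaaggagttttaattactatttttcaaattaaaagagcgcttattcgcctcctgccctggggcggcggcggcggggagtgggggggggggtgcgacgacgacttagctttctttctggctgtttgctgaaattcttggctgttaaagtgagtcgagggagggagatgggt
Erg most downstream start: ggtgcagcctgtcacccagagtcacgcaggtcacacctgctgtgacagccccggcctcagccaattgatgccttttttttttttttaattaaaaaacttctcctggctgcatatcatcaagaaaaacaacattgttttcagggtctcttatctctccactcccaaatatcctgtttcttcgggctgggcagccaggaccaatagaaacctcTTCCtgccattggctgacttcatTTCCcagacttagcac
The window at the most upstream start held 0 cores and that at the most downstream start held 2, both on the opposite strand, while the window between them (chr16:95530366-95530615, not printed) held 4. The downstream window also held 1 match to AGATAA, which factors of the Gata family bind, on the opposite strand, which is in 9.99% of the 32851 RefSeq promoter windows of this length, both strands searched.

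Etv2 is the factor at the top of the hierarchy in the precursors of endothelium and blood. It (ENSMUSG00000006311.8, chromosome 7 from 30633616 to 30635852, minus strand) had 355 and 454 counts at d4, against 34 and 19 counts at d2, which is 30.04 and 26.7 CPM at d4 and 2.78 and 1.44 CPM at d2. Both d2 libraries lay well above the floor of 3 counts, and the days did not overlap. Etv2 rose by 3.75 on the log2 scale (standard error 0.35, 95% interval 2.91 to 4.59, edgeR adjusted p = 3.2e-04). Its RefSeq start is shown because it held the most GGAA cores of the 12 starts found for 8 of the 10 factors, at chr7:30635853-30636102 of GRCm38.p6, minus strand, with the cores in capitals on both strands.
Etv2: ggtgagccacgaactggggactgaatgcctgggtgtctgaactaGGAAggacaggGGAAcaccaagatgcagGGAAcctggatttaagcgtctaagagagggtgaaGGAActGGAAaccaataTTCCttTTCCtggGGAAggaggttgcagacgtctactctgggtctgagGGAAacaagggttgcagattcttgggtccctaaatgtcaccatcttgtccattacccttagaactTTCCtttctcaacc
The window held 10 cores, 7 as printed and 3 on the opposite strand. Of the 32851 RefSeq windows of this length, 93.4% held at least 1 GGAA, the median was 3, and 0.192% held 10 or more. The longer form CCGGAAG was in 0 of the 12 windows and in 6.91% of all windows.

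Ets1 and Ets2, the founders of the family, are targets of MAPK signalling through a conserved threonine, and Ets1 is the form typical of endothelium and lymphoid cells. Ets1 (ENSMUSG00000032035.16, chromosome 9 from 32636221 to 32757820, plus strand) had 2399 and 3463 counts at d4, against 93 and 73 counts at d2. The CPM values were 203 and 204 at d4, against 7.61 and 5.54 at d2, so the d4 libraries agreed closely with each other and lay far above the d2 libraries. On the log2 scale Ets1 rose by 4.95 (standard error 0.26, 95% interval 4.34 to 5.57, edgeR adjusted p = 5.6e-05). Ets2 (ENSMUSG00000022895.16, chromosome 16 from 95702075 to 95721051, plus strand) had 1042 and 1274 counts at d4, against 338 and 295 counts at d2. At 88.2 and 75.0 CPM at d4, against 27.6 and 22.4 CPM at d2, it was already well counted before the added factors. Its log2 fold change of 1.71 (standard error 0.22, 95% interval 1.18 to 2.23, edgeR adjusted p = 0.0012) was the smallest among the 6 factors that rose.

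These genes stand in 2 pairs on the chromosomes. Fli1 and Ets1 point away from each other on chromosome 9 with 93.4 kb between their annotated bounds, and the 2 genes annotated in that gap had 0 counts in all libraries. Erg and Ets2 point away from each other on chromosome 16 across 115 kb with 0 annotated genes between them. In both pairs both members were higher at d4, and in both the ERG-type gene had the lower level per kb at d2.

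The ELK factors, or ternary complex factors, bind DNA together with SRF at genes that respond within minutes to growth factors. Elk3, also called Net, is a repressor in resting cells and is needed in vessels of the mouse. Elk3 (ENSMUSG00000008398.16, chromosome 10 from 93247414 to 93311135, minus strand) had 625 and 568 counts at d4, against 26 and 28 counts at d2. This is 52.9 and 33.4 CPM at d4, against 2.13 CPM in each d2 library. The d4 libraries stood apart from each other, yet both lay far above d2. Elk3 rose by 4.34 on the log2 scale (standard error 0.33, 95% interval 3.55 to 5.12, edgeR adjusted p = 1.4e-04).
The 250 bases before its RefSeq start (chr10:93311160-93311409 of GRCm38.p6, minus strand) are shown for comparison with Etv2, and capitals mark the cores again.
Elk3: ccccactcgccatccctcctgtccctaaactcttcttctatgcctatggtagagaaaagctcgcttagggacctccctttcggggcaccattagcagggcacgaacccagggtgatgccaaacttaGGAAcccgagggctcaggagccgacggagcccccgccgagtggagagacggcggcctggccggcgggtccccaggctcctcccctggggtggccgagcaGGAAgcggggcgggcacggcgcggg
This window held 2 cores, both as printed, below the median of 3 over all windows.

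Elk1 (ENSMUSG00000009406.13, chromosome X from 20933395 to 20950608, minus strand), the best known SRF partner, had 362 and 520 counts at d4, against 302 and 289 counts at d2. Its CPM values were 30.6 in each d4 library, against 24.7 and 21.9 at d2, so the days did not overlap but lay close. The log2 fold change of 0.39 (standard error 0.21, 95% interval -0.10 to 0.88) did not pass the test (edgeR adjusted p = 0.179). Its exons share 76 bp with those of Uxt on the same strand, and by the study's counting rule reads in a shared stretch went to neither gene. The difference between Elk3 and Elk1 in their change was not tested.

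Etv6, also called TEL, is a repressor that blood stem cells of the bone marrow need. Etv6 (ENSMUSG00000030199.16, chromosome 6) had 1240 and 1215 counts at d4, against 532 and 469 counts at d2, or 105 and 71.5 CPM at d4 and 43.5 and 35.6 CPM at d2. Both d4 libraries lay above both d2 libraries, and d4 replicate 2 was the closer to them. The log2 fold change of 1.16 (standard error 0.26, 95% interval 0.55 to 1.77) missed the threshold by edgeR (adjusted p = 0.0115) and passed it by DESeq2 (adjusted p = 0.00192). With the replicate number as a block, Etv6 passed by edgeR (adjusted p = 1.3e-06), but the sources do not say that these numbers pair the samples. By edgeR it passed without d4 replicate 2 (adjusted p = 2.2e-04, log2 fold change 1.41) and not without d4 replicate 1 (adjusted p = 0.0370, log2 fold change 0.85). Without either d2 library it did not pass by edgeR (adjusted p = 0.0657 and 0.105) or DESeq2 (adjusted p = 0.0695 and 0.188).

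The ELF factors are activators best known from lymphoid, myeloid and endothelial genes. Elf1 (ENSMUSG00000036461.16, chromosome 14) had 229 and 264 counts at d4, against 111 and 108 counts at d2, or 19.4 and 15.5 CPM at d4 and 9.08 and 8.20 CPM at d2. The days did not overlap. The log2 fold change was 1.01 (standard error 0.25, 95% interval 0.43 to 1.60), with an adjusted p of 0.0169 by edgeR, 0.00911 by DESeq2. With the replicate number as a block, Elf1 passed by edgeR (adjusted p = 6.9e-05), under the same limit as Etv6. By edgeR it passed without d4 replicate 2 (adjusted p = 0.00855) and not without d4 replicate 1 (adjusted p = 0.0752), and by DESeq2 it missed the threshold whichever library was left out (adjusted p = 0.0888 to 0.364). Elf4 (ENSMUSG00000031103.12, chromosome X), also called MEF, had 60 and 68 counts at d4, against 51 and 58 counts at d2. Its 5.08 and 4.00 CPM at d4 lay on either side of the 4.17 and 4.40 CPM at d2. The log2 fold change was 0.08 (standard error 0.29, 95% interval -0.62 to 0.77, edgeR adjusted p = 0.859), and its sign turned under upper-quartile scaling (-0.01) and without d4 replicate 1 (-0.10).

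**Figure D2:**
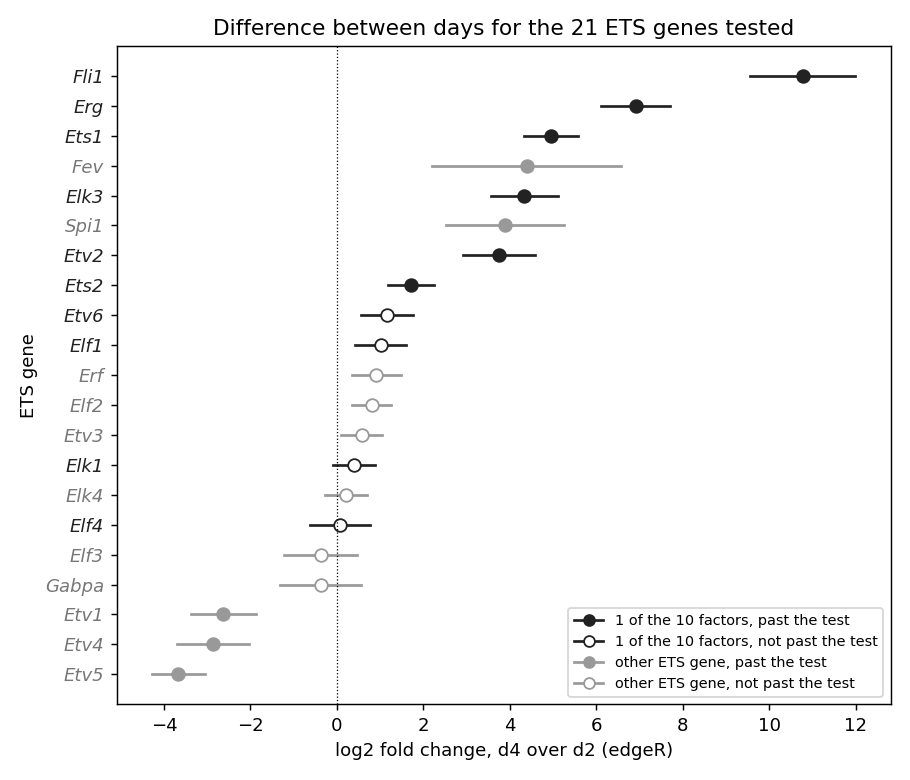
log2 fold change of d4 over d2 by edgeR, with its 95% interval, for the 21 ETS genes that passed the filter, the 10 factors in black and the other 11 in grey, and filled points past an adjusted p of 0.01. Fli1 and Fev had 1 count at d2, so their positions depend on edgeR's prior count; Etv5, Etv4 and Etv1 lie at the lower end.

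Levels between genes were compared per kb of exon. At d4, Etv2 (28.7 and 25.5 CPM per kb), Fli1 (22.3 and 26.4) and Ets1 (24.0 in each library) had the highest levels of the 10, and Fli1 overlapped both Etv2 and Ets1. Etv6 (17.5 and 11.95 CPM per kb) and Ets2 (15.3 and 12.97) followed and overlapped, as did Erg (11.8 and 10.6) and Elk3 (11.6 and 7.34). Elk1 (5.69 in each library), Elf1 (2.88 and 2.31) and Elf4 (0.826 and 0.651) came last and were apart from each other. With the longest transcript as the length, Ets1 rather than Etv2 led at d4.

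At d2 the order was another. Etv6 had the highest level per kb of the 10 (7.27 and 5.95 CPM per kb), followed by Ets2 (4.78 and 3.88) and Elk1 (4.59 and 4.08), which overlapped. Etv2 (2.65 and 1.38 CPM per kb), Elf1 (1.35 and 1.22), Ets1 (0.897 and 0.654) and Elf4 (0.678 and 0.716) were lower, and the last pair overlapped. Elk3 (0.467 CPM per kb in each library), Erg (0.0708 and 0.110) and Fli1 (0.0235 and 0) were the lowest, so the gene lowest at d2 was among the 3 highest at d4.

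The 26 ETS genes of the mouse summed to 199 and 197 CPM per kb at d4, against 166 and 145 CPM per kb at d2. The 10 factors held 67.7 ± 4.26% of that sum at d4, against 13.2 ± 0.704% at d2 (SD, n = 2 libraries per day). The PEA3 branch (Etv1, Etv4 and Etv5), which answers to FGF signalling in many tissues, held 4.07 ± 0.869% at d4, against 56.5 ± 3.04% at d2. The branch of Erg, Fli1 and Fev held 18.3 ± 1.10% at d4, against 0.0814 ± 0.00824% at d2. Ets1 and Ets2 held 19.3 ± 0.657% at d4, against 3.27 ± 0.209% at d2, and Etv2 held 13.7 ± 1.04% at d4, against 1.27 ± 0.458% at d2. The shares of the days did not overlap for any of these branches, and no test was made on the shares.

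**Figure D3:**
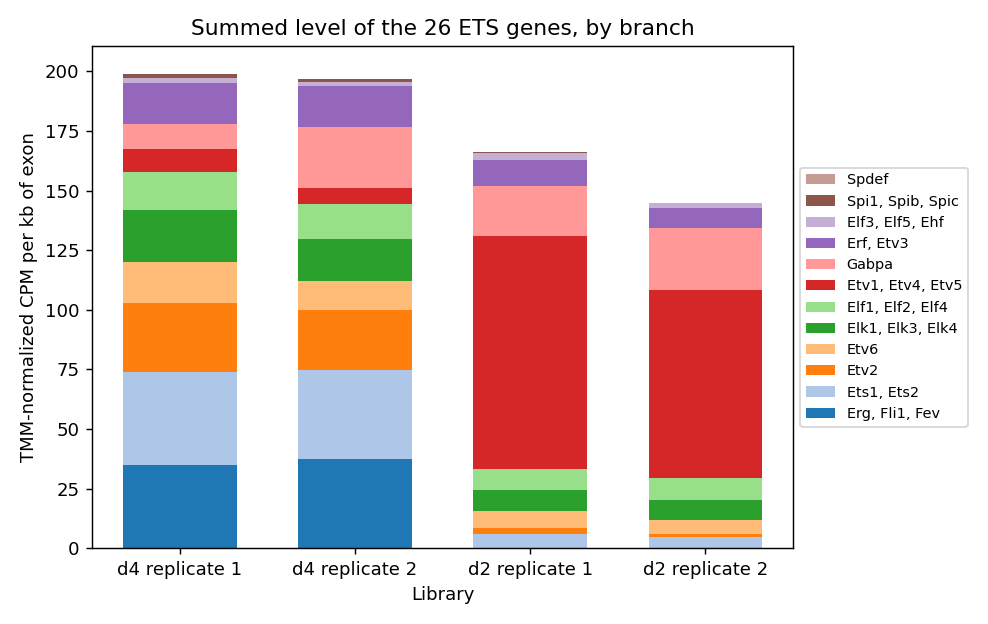
Summed level of the 26 ETS genes (TMM-normalized CPM per kb of exon) in each library, stacked by branch, with d4 at the left. Etv1, Etv4 and Etv5 take 4.69% and 3.46% of the bar at d4, against 58.7% and 54.4% at d2.

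Outside the 10, 16 further ETS genes had at least 1 count and 11 of them were tested. Etv5 fell, with 306 and 333 counts at d4 against 3945 and 3364 counts at d2 (log2 fold change -3.67, standard error 0.26, edgeR adjusted p = 1.2e-04). Etv4 fell by 2.87 (standard error 0.35, edgeR adjusted p = 9.4e-04) and Etv1 by 2.63 (standard error 0.32, edgeR adjusted p = 8.9e-04) on the log2 scale. Etv4 had 8.04 and 4.18 CPM at d4, against 49.3 and 39.3 CPM at d2. Etv1 had 5.50 and 9.12 CPM at d4, against 38.8 and 52.2 CPM at d2. Of all genes tested, 11.3% were lower at d4 by edgeR.

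Spi1, which encodes the myeloid and lymphoid factor PU.1, rose, with 40 and 46 counts at d4 against 4 and 1 counts at d2 (log2 fold change 3.88, standard error 0.57, edgeR adjusted p = 0.00196). Fev had 13 and 16 counts at d4 against 1 and 0 counts at d2, a ratio of 25.6 (95% counting interval 4.24 to 1044, edgeR adjusted p = 0.00698), and missed the threshold by DESeq2 (adjusted p = 0.0262). Gabpa, a factor of mitochondrial and other housekeeping genes, had 60.2 and 145 CPM at d4 against 119 and 148 CPM at d2, and the days overlapped. Elf2, Erf, Etv3, Elk4, Elf3 and Gabpa did not pass the test, with log2 fold changes of 0.80, 0.92, 0.57, 0.20, -0.38 and -0.38. Elf2 passed by DESeq2 (adjusted p = 0.00297). Below the filter, Ehf had 13 counts at d4 and 1 at d2, Spib 5 and 13, Spic 0 and 8, Spdef 2 and 2, and Elf5 1 and 0.

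ETS factors bind DNA beside partners, and the list of 19 partners and upstream genes held the SRF circuit, the GATA, TAL1 and RUNX1 complex, SOX factors, kinases and AP-1. Of these 19, 10 were higher at d4 by edgeR, 0 were lower and 9 did not pass, where 12.9% of all genes were higher and 11.3% lower. At an unadjusted p under 0.05 the counts were 12 higher and 1 lower (Cebpa), against 24.6% and 22.6% of all genes. Tal1, which drives blood and EC precursors together with ETS and GATA factors, had 311.5 and 257 CPM at d4, against 0.736 and 1.44 CPM at d2 (log2 fold change 8.01, standard error 0.37, edgeR adjusted p = 4.5e-05). Its partner Lmo2 reached a log2 fold change of 5.89 (standard error 0.28, edgeR adjusted p = 4.5e-05). For Gata2, a factor of blood stem cells, it was 7.57 (standard error 0.40, edgeR adjusted p = 5.6e-05), and for Runx1, needed for blood to leave endothelium, 6.36 (standard error 0.35, edgeR adjusted p = 6.4e-05). The median log2 fold change was 3.42, or 2.69 with the 4 genes that had no count at d2 set at a floor of 3 counts per library, against -0.027 for all genes.

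Srf, its coactivators and the kinase genes named here did not pass the test. Srf had 39.1 and 38.1 CPM at d4, against 48.3 and 32.2 CPM at d2, with overlapping days and a log2 fold change of -0.06 (standard error 0.25, edgeR adjusted p = 0.868). Its coactivators Mrtfa and Mrtfb had log2 fold changes of 0.46 and 0.36, and the kinase genes Mapk3 and Rps6ka1 had 0.37 and 0.29.

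A list of 28 endothelial and blood genes, called ETS-bound here, held genes known with ETS sites or as genes under ETV2, ERG or FLI1. Binding was not measured. Of the 28, 25 were tested, of which 19 were higher at d4 by edgeR and 0 were lower, against 12.9% and 11.3% of all genes. The remaining 6 did not pass, and at an unadjusted p under 0.05 the counts were 23 higher and 0 lower, where all genes had 24.6% and 22.6%. Kdr, the main VEGF receptor, had 601 and 463 CPM at d4, against 0.654 and 0.683 CPM at d2 (log2 fold change 9.62, standard error 0.32, edgeR adjusted p = 4.0e-05). Cdh5, the cadherin of endothelial junctions, had 1607 and 1523 counts at d4 against 1 in each d2 library, a ratio of 1380 (95% counting interval 382 to 11396, edgeR adjusted p = 4.1e-05). Tie1, an endothelial receptor kinase, had 854 and 869 counts at d4 against 1 and 2 at d2, a ratio of 506 (95% counting interval 173 to 2457, edgeR adjusted p = 4.5e-05). Pecam1, an adhesion molecule of endothelium, rose by 5.19 on the log2 scale (standard error 0.27, edgeR adjusted p = 5.1e-05).

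Eng, Robo4, Cldn5, Notch4, Dll4 and Adgrg6 did not pass by edgeR, with log2 fold changes of 0.98, 0.91, 0.42, 1.82, 2.77 and 3.17. DESeq2 called 21 of the 25 higher, with Dll4 (adjusted p = 0.0012) and Notch4 (adjusted p = 0.00857) among them, against 14.6% of all genes. Both d4 libraries lay above both d2 libraries for 24 of the 25, against 35.8% of all genes tested. Cldn5, a tight junction gene, had 21 and 38 counts at d4, against 26 and 12 counts at d2, and the days overlapped. The median log2 fold change of the list was 4.55, or 4.26 with the 1 gene without counts at d2 at the floor. All 10 endothelial markers are in this list, so the counts of the marker list and of this list are not separate.

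Of 12 immediate early genes known to be under ELK factors and SRF, 10 were tested, of which 3 were higher, 1 was lower and 6 did not pass by edgeR, where 12.9% of all genes were higher and 11.3% lower. At an unadjusted p under 0.05 the counts were 6 higher and 2 lower, against 24.6% and 22.6% of all genes. Atf3 (log2 fold change 3.32, standard error 0.42, edgeR adjusted p = 0.0010), Junb (3.07, standard error 0.36, edgeR adjusted p = 7.3e-04) and Fos (2.71, standard error 0.38, edgeR adjusted p = 0.0015) rose. Fos is also counted as higher in the list of partners. Egr1, the best known target of ELK1, fell, with 44 and 34 counts at d4 against 142 and 159 counts at d2 (log2 fold change -2.07, standard error 0.35, edgeR adjusted p = 0.0039). The median log2 fold change of the list was 0.85, against -0.027 for all genes.

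**Figure D4:**
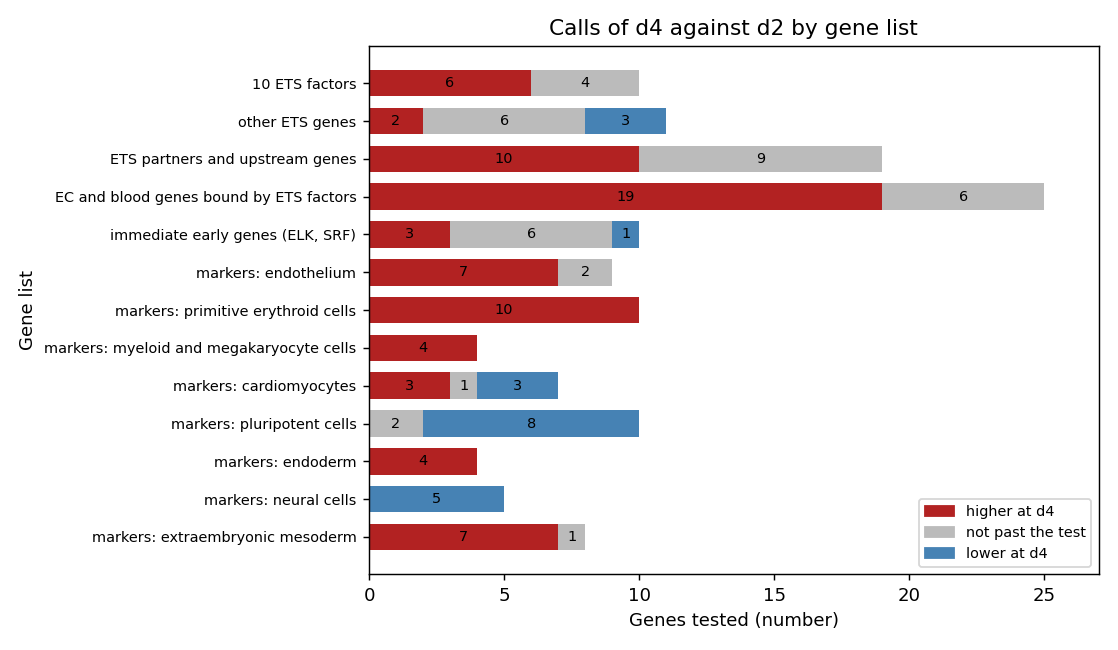
Number of genes tested in each list, split into those higher at d4 (red), not past edgeR's test (grey) and lower at d4 (blue). The list labelled as bound holds EC and blood genes known with ETS sites or as genes under ETV2, ERG or FLI1, and includes all the endothelial markers. It has 19 of 25 higher and 0 lower, against 12.9% and 11.3% of all genes, whereas pluripotent and neural markers are lower or not past the test.

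Markers of several cell types also differed between the days, where 12.9% of all genes tested were higher and 11.3% lower by edgeR. Endothelial markers had 7 of 9 tested higher, with Emcn under the filter and Cldn5 and Robo4 not past the test. All of them are also in the list of ETS-bound genes. Primitive erythroid markers had 10 of 10 higher, and the erythroid list summed to 464 and 322 CPM at d4, against 7.69 and 6.76 CPM at d2. Myeloid and megakaryocyte markers had 4 of 4 tested higher, but 6 of the 10 were under the filter, with Ptprc and Pf4 at 0 in all libraries, and the list summed to 100.1 and 71.8 CPM at d4, against 1.15 and 0.532 CPM at d2. Most of that sum was Itga2b, which is also in the list of ETS-bound genes, with 89.7 and 65.5 CPM at d4, against 0.491 and 0.228 CPM at d2. Extraembryonic mesoderm markers had 7 of 8 higher and summed to 1145 and 1341 CPM at d4, against 17.9 and 17.2 CPM at d2. The largest parts of that d4 sum were Ahnak (471 and 621 CPM) and Hand1 (311.5 and 280 CPM). Bulk RNA does not say which cells held them. Endoderm markers had 4 of 4 tested higher, with Foxa2, Afp, Ttr and Apoa1 under the filter, and summed to 226 and 154 CPM at d4, against 2.54 and 2.58 CPM at d2. Most of the d4 sum was Gata4 (132 and 104 CPM) and Hhex (78.5 and 42.9 CPM), which other mesodermal and endothelial cells also express, and Hhex and Sox17 are in the ETS-bound and partner lists as well.

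Cardiomyocyte markers had 3 higher and 3 lower of 7 tested, where 12.9% of all genes were higher and 11.3% lower. They summed to 37.8 and 32.4 CPM at d4, against 43.2 and 32.2 CPM at d2, but single genes moved in opposite directions. Tnnt2, Tnni1 and Myl4 rose, with Tnnt2 at 13.1 and 12.9 CPM at d4 against 0.164 and 0 CPM at d2. Myh6, Actn2 and Ttn fell, with Myh6 at 0.762 and 0.765 CPM at d4 against 20.2 and 13.4 CPM at d2. Myl7 did not pass the test. Pluripotent markers had 8 of 10 lower, and neural markers had 5 of 5 tested lower and summed to 76.4 and 63.4 CPM at d4, against 423 and 432 CPM at d2. Most of that d2 sum was Otx2 (227 and 266 CPM) and Nes (132 and 115 CPM). Tubb3 had 58.7 and 47.1 CPM at d2, Pax6 3.68 and 3.04 CPM and Sox1 1.39 and 1.37 CPM. The part of these cell types in the levels of the ETS factors was not tested. The replicates of a day also differed in depth and in the share of mitochondrial counts, which was 1.44% and 2.36% at d4 and 1.33% and 3.07% at d2, and their part in the results was not tested either.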

How the data were processed

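RNA-seq of E14-Tg2a mESCs at d4 and d2, with 2 libraries per day, was analysed from the deposited raw counts, 1 column per library. By the study's methods, the authors trimmed strand-specific paired-end reads, aligned them to mm10/GRCm38 with STAR and counted them per gene with featureCounts on the reverse strand setting, leaving out reads with several map positions or genes. The counts were deposited with no filter or normalization. Symbols, positions and exon lengths were taken from GENCODE M21 of GRCm38, which held 55227 of the 55487 gene IDs.

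Genes were kept where a proportion test of a day's counts against 0.5 CPM had an adjusted p under 0.05. Days were compared with edgeR 4.0.16 in R 4.3.3 (TMM factors, glmQLFit and glmQLFTest, day as the only term, two-sided, Benjamini-Hochberg adjustment over all 14932 genes). Standard errors come from the coefficient and the F statistic. For 1 to 3 counts in a day, the ratio of normalized counts has an exact 95% binomial interval. Intervals and floors cover counting error only. The scripts were tested on simulated data. Alternatives were DESeq2 1.42.0, limma 3.58.1 (voom), other scalings, filters and thresholds, thinning, the replicate number as a block, and each library left out.

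The 10 factors and the gene lists, drawn from general knowledge, were chosen with earlier results of these data known. Named genes are the 10 factors, the other ETS genes with counts, and in each list of partners, bound and immediate early genes up to 4 past the test with the smallest adjusted p and up to 3 that passed in the opposite direction; other names were chosen after their values were seen. Promoter windows are RefSeq's, and 8 of the 10 factors had one; Fli1 and Ets1 had none in the table used here. Motifs were searched on both strands. 1 gene of the partner list is counted in its totals and not reported here by name.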

Additional observations from a re-analysis of the deposited data

How the results depend on the processing

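The count of 6 factors higher at d4 stayed at 6 to 8 with each scaling, filter, tool and threshold tried. It ranged from 0 to 8 when a library was left out, as edgeR called 0 genes without either d2 library. Over all genes, leaving out a library gave 0 to 2269 higher and 0 to 2475 lower by edgeR, and DESeq2 gave 1049 and 730 without d2 replicate 1, 985 and 722 without d2 replicate 2, 1248 higher without d4 replicate 1 and 1268 higher without d4 replicate 2. At an unadjusted p under 0.05, edgeR had 3428 higher and 2915 lower genes without d2 replicate 1, and 2983 and 3029 without d2 replicate 2. With no filter, 2901 genes were higher and 2873 lower, and at an adjusted p under 0.05, 2991 and 2679. Etv6 and Elf1 joined the 6 with no filter, by DESeq2, at an adjusted p under 0.05 and under the replicate block. With the replicate number as a block, 3478 genes were higher and 3496 lower, with adjusted p values of 1.3e-06 for Etv6 and 6.9e-05 for Elf1 by edgeR. The sources used here do not say that the numbers pair the samples, and same-numbered libraries deviated together across genes (r = 0.539). Within a day, replicate 2 minus replicate 1 followed the GC content of genes (Spearman rho -0.494 at d4, -0.726 at d2, across genes). Elf4 changed sign under upper-quartile factors (-0.01) and without d4 replicate 1 (-0.10 by edgeR, -0.07 by DESeq2), and stood at 0.24 without d4 replicate 2. With the longest transcript as length, the ETS sum was 244 CPM per kb at d4 and 182 at d2, the 10 factors held 14.6% at d2, and at d4 Ets1 held 16.4%, Etv2 11.1% and Fli1 10.5%. With CPM by total count, the sum at d4 was 202. Leaving out a library gave sums of 197 to 199 at d4 and 145 to 166 at d2. The cause of these shifts was not tested.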
